A study of Mus musculus with 6 samples.

Results

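The 10 genes described here encode the peptide-presenting molecules of the mouse major histocompatibility complex (MHC) and the proteins that load them: H2-Aa, H2-Ab1, H2-Eb1 and Cd74 (class II), H2-D1, H2-K1 and B2m (class I), and Tap1, Tap2 and Tapbp (peptide loading). They are 10 of 18194 genes named on the array, and every probe set annotated to exactly 1 of them was read separately on all 6 arrays, which gave 31 probe sets. The genes were chosen from values of these same arrays, so their differences between groups are given as a description, with no p-value, and nothing is supported with them. Of the 31 probe sets, 25 passed the filter on low values and entered the fit across all probe sets.

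Class I molecules sit on most nucleated cells and present peptides made inside the cell, with B2m as their invariant partner chain. Tap1 and Tap2 form the transporter that carries those peptides into the endoplasmic reticulum, and Tapbp (tapasin) holds the class I molecule to the transporter while it is loaded. Class II molecules are pairs of an alpha and a beta chain, carried by professional antigen-presenting cells such as the macrophages of the testis, and Cd74 is the invariant chain that occupies and guides them before they meet peptide. The H2 genes are among the most polymorphic genes of the mouse, and developing germ cells are generally described as carrying little MHC.

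Expression was measured with Affymetrix mouse 3' arrays in elongating spermatids, the cells after meiosis in which the nucleus condenses. Male ICR mice, an outbred strain labelled wildtype and adult, received lentiviral vectors carrying GFP in the testis when 5 weeks old, and GFP-positive elongating spermatids were sorted from germ cells 1 week afterwards. The 3 groups of 2 arrays were control (the empty pSilencer vector), shCaf1 and shMiwi (short hairpin RNAs named for Caf1, taken here to be the deadenylase Cnot7, and for Miwi, the PIWI protein Piwil1), and all 3 share the strain, the virus, the GFP and the sort. The labels call the 2 arrays of a group biological replicates without saying how many animals each stands for, so a p-value measures only the spread between these arrays, and the H2 types of the animals are not given in the sources used here. Values are MAS5 signal intensities on a linear scale, and differences are of log2(signal + 16).

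The start regions of 4 members are shown because H2-D1 and H2-K1 are close copies of each other, with those of the class II genes H2-Aa and H2-Eb1 beside them. Each is 300 bases (250 before the annotated start and 50 after it) from RefSeq, build GRCm38.p6, on the strand of the gene. The H2-D1 region lies at chr17:35262844-35263143 (plus strand), that of H2-K1 at chr17:34000298-34000597 (minus strand), that of H2-Aa at chr17:34287774-34288073 (minus strand) and that of H2-Eb1 at chr17:34305617-34305916 (plus strand). Capitals mark matches to the motifs searched on both strands: the Y box core ATTGG, part of the X box (CAACNGATG), the interferon-stimulated response element GAANNGAAA and the NF-kB site (GGG and CCC with any 5 bases between). RefSeq promoters were at hand for 7 of the 10 genes, the others being H2-Ab1, Cd74 and Tap2.
H2-D1: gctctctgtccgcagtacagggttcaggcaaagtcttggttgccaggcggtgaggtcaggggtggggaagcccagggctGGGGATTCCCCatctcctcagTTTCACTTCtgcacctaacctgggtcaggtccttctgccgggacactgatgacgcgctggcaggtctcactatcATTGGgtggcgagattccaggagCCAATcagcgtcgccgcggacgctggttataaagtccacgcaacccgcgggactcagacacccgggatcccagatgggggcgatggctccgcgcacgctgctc
H2-K1: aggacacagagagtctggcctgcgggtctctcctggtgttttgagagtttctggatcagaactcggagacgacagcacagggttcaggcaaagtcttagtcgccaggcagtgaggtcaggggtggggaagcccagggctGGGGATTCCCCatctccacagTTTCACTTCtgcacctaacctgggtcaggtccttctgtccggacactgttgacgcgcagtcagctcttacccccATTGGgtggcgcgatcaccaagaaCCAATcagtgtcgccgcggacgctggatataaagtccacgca
H2-Aa: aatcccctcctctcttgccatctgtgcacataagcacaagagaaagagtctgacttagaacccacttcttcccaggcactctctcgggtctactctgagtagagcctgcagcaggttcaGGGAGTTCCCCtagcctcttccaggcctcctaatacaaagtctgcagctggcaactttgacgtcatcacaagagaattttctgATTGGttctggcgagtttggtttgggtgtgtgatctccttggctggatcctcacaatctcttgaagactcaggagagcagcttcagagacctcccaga
H2-Eb1: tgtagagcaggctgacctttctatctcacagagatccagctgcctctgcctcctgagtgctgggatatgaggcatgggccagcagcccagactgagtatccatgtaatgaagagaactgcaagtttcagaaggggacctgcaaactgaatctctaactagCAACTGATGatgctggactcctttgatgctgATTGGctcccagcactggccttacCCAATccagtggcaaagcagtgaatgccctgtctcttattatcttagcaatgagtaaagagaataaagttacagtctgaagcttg

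The H2-D1 and H2-K1 regions matched at 206 of 228 aligned bases (90.4%), against 32 of 44 (72.7%) for H2-Aa and H2-Eb1. H2-K1 and H2-Aa, of different classes, matched at 21 of 30 (70.0%), so no class II likeness is read from these short alignments. H2-D1 and H2-K1 held the same NF-kB match, GGGGATTCCCC, at -171 to -161 and at -111 to -101 from their annotated starts. Both also held the interferon-stimulated element on the minus strand, at -150 to -142 in H2-D1 and at -90 to -82 in H2-K1. That element was found in 2 of the 7 member promoters, against 7.52% of 32851 RefSeq promoters, and the NF-kB pattern in 5 of 7, against 14.0%. H2-Eb1 alone of the 7 held the X box pattern, at -90 to -82, which 0.566% of all promoters held. The Y box core, a common pentamer, was in 7 of 7 and in 37.4% of all promoters. A match describes these letters only and is not a measured binding site.

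On several array-wide measures both control arrays differed from the shRNA arrays, and every value against control rests on them. The hybridization controls, RNAs added in a fixed amount, read 82.3 and 16.2 times the mean of the shRNA arrays on the control arrays, against 0.806 to 1.2 times on the shRNA arrays themselves. The 100 brightest probe sets held 52.6% and 29.5% of the control arrays' signal and 5.85% to 7.25% of that of the others. Across probe sets of 2 replicates, log2 signals correlated at 0.451 for control, 0.983 for shCaf1 and 0.982 for shMiwi, a description of arrays that share 1 platform. Piwil1, the target of shMiwi, read 1445360 and 292542 in control, 21881 and 22442 in shCaf1 and 9780 and 10392 in shMiwi. Cnot7 read 2003570 and 188877, 3633 and 4330, and 4365 and 5012 in the same order. With the arrays rescaled on the hybridization controls, Piwil1 read 17566 and 18023 in control, 19926 and 18695 in shCaf1 and 10391 and 12893 in shMiwi. Rescaled values of Cnot7 were 24350 and 11636, 3308 and 3607, and 4638 and 6218. Piwil1 was lower in shMiwi than in shCaf1 by limma (log2 difference -1.14, SE 0.09, Benjamini-Hochberg adjusted p = 0.00105), while Cnot7 did not pass (0.24, SE 0.13, adjusted p = 0.307). The comparison of the shRNA groups was fitted on their 4 arrays alone, so that the wide spread of the control arrays does not enter it. The summed signal of the elongating spermatid markers ran from 217002 to 231376 in shCaf1 and from 140712 to 153190 in shMiwi, and was 7402 and 720926 in control.

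Between the shRNA groups, the tested class II probe sets all read lower in shMiwi, those of H2-K1 and B2m read 0.07 to 0.66 higher on the log2 scale, those of the loading genes lay within 0.17 of 0, and H2-D1 gave opposite answers from different probe sets. By gene role, 0 of 7 tested class II probe sets were called higher and 3 lower, 3 of 14 class I probe sets were called higher and 3 lower, and 0 of 4 loading probe sets were called; the 6 class I calls were all of H2-D1. Over all 25 tested, 3 were called higher, 6 lower and 16 neither, with a median log2 difference of 0.07. Over all 27022 probe sets tested, 3.81% were called higher and 3.52% lower, and the median log2 difference was 0.02. Since these values were in view when the genes were chosen, nothing is read from the members' share beside that background. The 9 calls kept their direction in every alternative that tested them, but only 1 stayed a call without an intensity trend in the variance and 0 in the limma fit on all 6 arrays, where 6 members had an unadjusted p under 0.05.

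**Figure D1:**
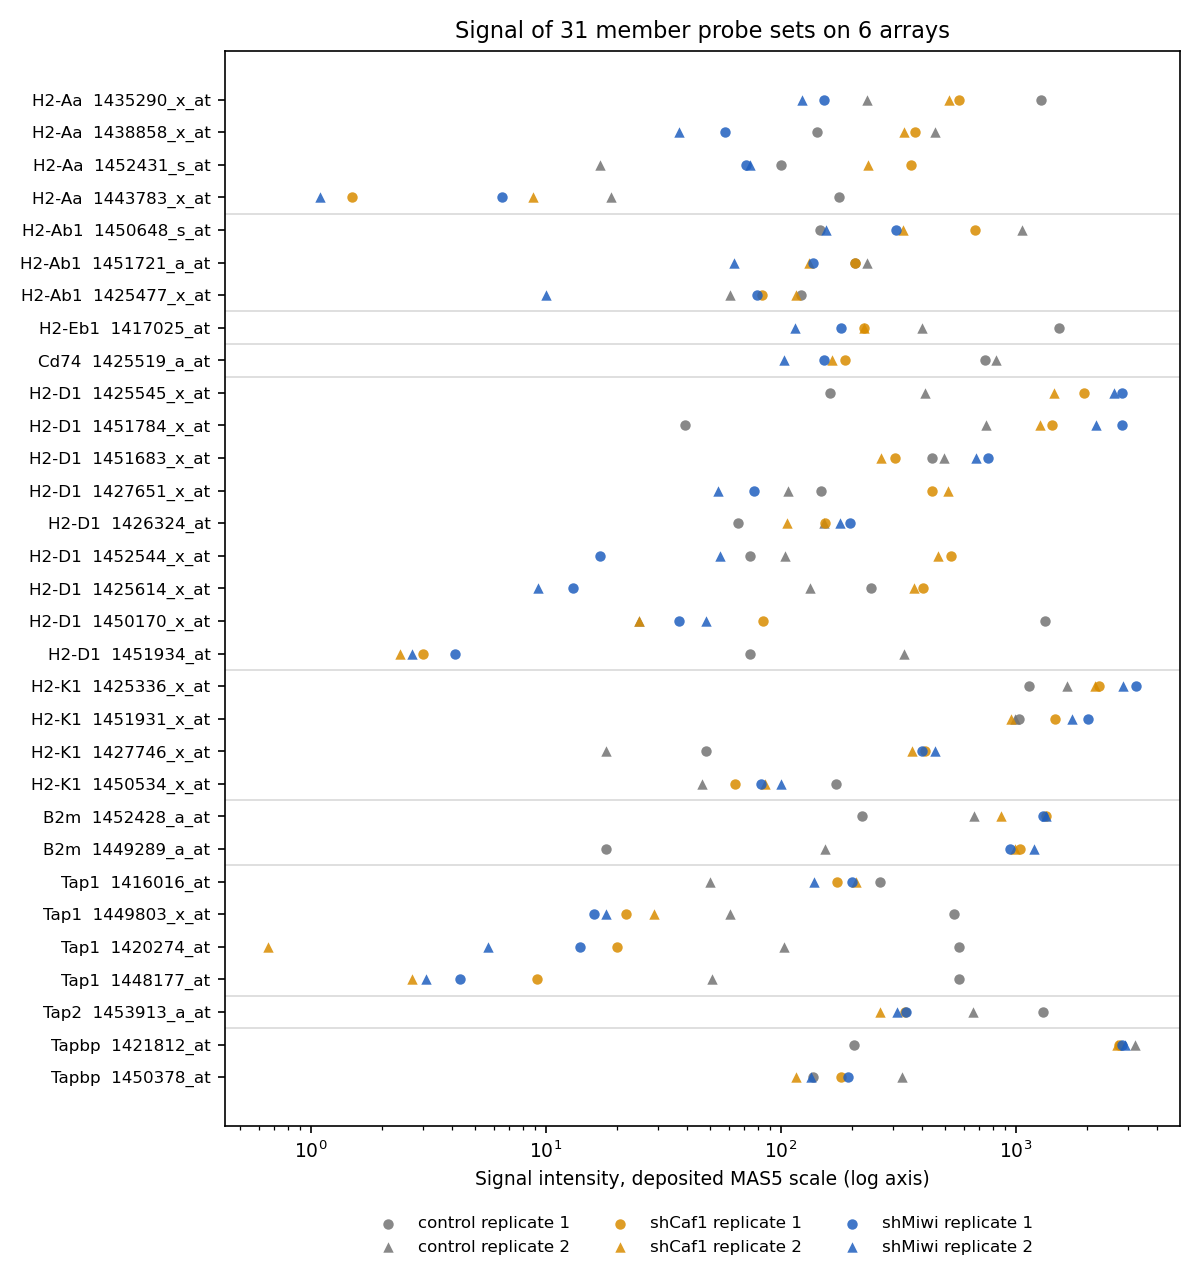
Signal intensity (log scale) of the member probe sets on each of the 6 arrays, with 1 point per array, coloured by group and shaped by replicate. The 2 control points of a probe set often lie far apart, as for B2m 1449289_a_at at 18 and 155, while replicate shRNA points mostly lie close together.

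H2-D1, a classical class I heavy chain, was read by 9 probe sets annotated to 9 different source sequences, 8 of which were tested. The probe set 1425614_x_at read 404 and 369 in shCaf1 and 13 and 9.3 in shMiwi, with 241 and 133 in control. Its shMiwi arrays lay below all others, and the difference of shMiwi from shCaf1 was -3.90 (SE 0.27). Its shMiwi signals are below the median signal of genes of tissues outside the testis (given later). The size follows the added constant, with -5.03 for a constant of 1 and -2.59 for 64. The probe set 1452544_x_at read 532 and 467 in shCaf1, 17 and 55 in shMiwi and 74 and 104 in control, a difference of -3.40 (SE 0.34).
The shMiwi arrays were again the lowest, and the shCaf1 arrays the highest. The probe set 1427651_x_at read 440 and 515 in shCaf1, 77 and 54 in shMiwi and 149 and 107 in control, a difference of -2.61 (SE 0.23). In these 3 probe sets the shCaf1 arrays stood above the control arrays and the shMiwi arrays below them, with no overlap of any groups. They were picked by their direction, and 25.3% of all 27022 tested probe sets had both shMiwi arrays below both shCaf1 arrays. The share with the full order of the 3 groups was not counted.

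The next probe sets of the same gene ran the other way. They too were picked by direction, and the share of all probe sets with both shMiwi arrays highest was not counted. The probe set 1451683_x_at read 305 and 267 in shCaf1 and 763 and 679 in shMiwi, with 442 and 494 in control, a difference of 1.29 (SE 0.17), or 2.44-fold. The probe set 1451784_x_at read 1432 and 1265 in shCaf1, 2835 and 2194 in shMiwi and 39 and 744 in control, a difference of 0.88 (SE 0.15). The probe set 1425545_x_at, the highest on average, read 1944 and 1459 in shCaf1, 2831 and 2614 in shMiwi and 162 and 411 in control, a difference of 0.69 (SE 0.15). In each of these the shMiwi arrays were above every other array, and without the second shCaf1 array 1451784_x_at was at 0.79 and 1425545_x_at at 0.48, and neither was called. The other tested probe sets were called in neither direction: 1426324_at read 155 and 106 in shCaf1 and 197 and 178 in shMiwi (0.50, SE 0.24), and 1450170_x_at read 84 and 25 against 37 and 48, which overlap. The ninth, 1451934_at, was left out by the filter, at 2.4 to 4.1 on the shRNA arrays.

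Summed on the linear scale, the 3 H2-D1 probe sets that were lower in shMiwi read 1376 and 1350 in shCaf1 and 106 and 119 in shMiwi. The 3 that were higher read 3682 and 2991 in shCaf1 and 6429 and 5487 in shMiwi. The probe sets were picked by these directions, so the sums give levels only. Of the 9 probe sets, 7 carry the suffix x, which marks probes that may cross-hybridise with other transcripts, as do all 4 of H2-K1 and 16 of the 31 in all. All 6 H2-D1 probe sets called in either direction are of that kind, so for H2-D1 a signal cannot be assigned to 1 transcript, and which H2 transcripts each probe set read in these outbred animals was not tested.

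**Figure D2:**
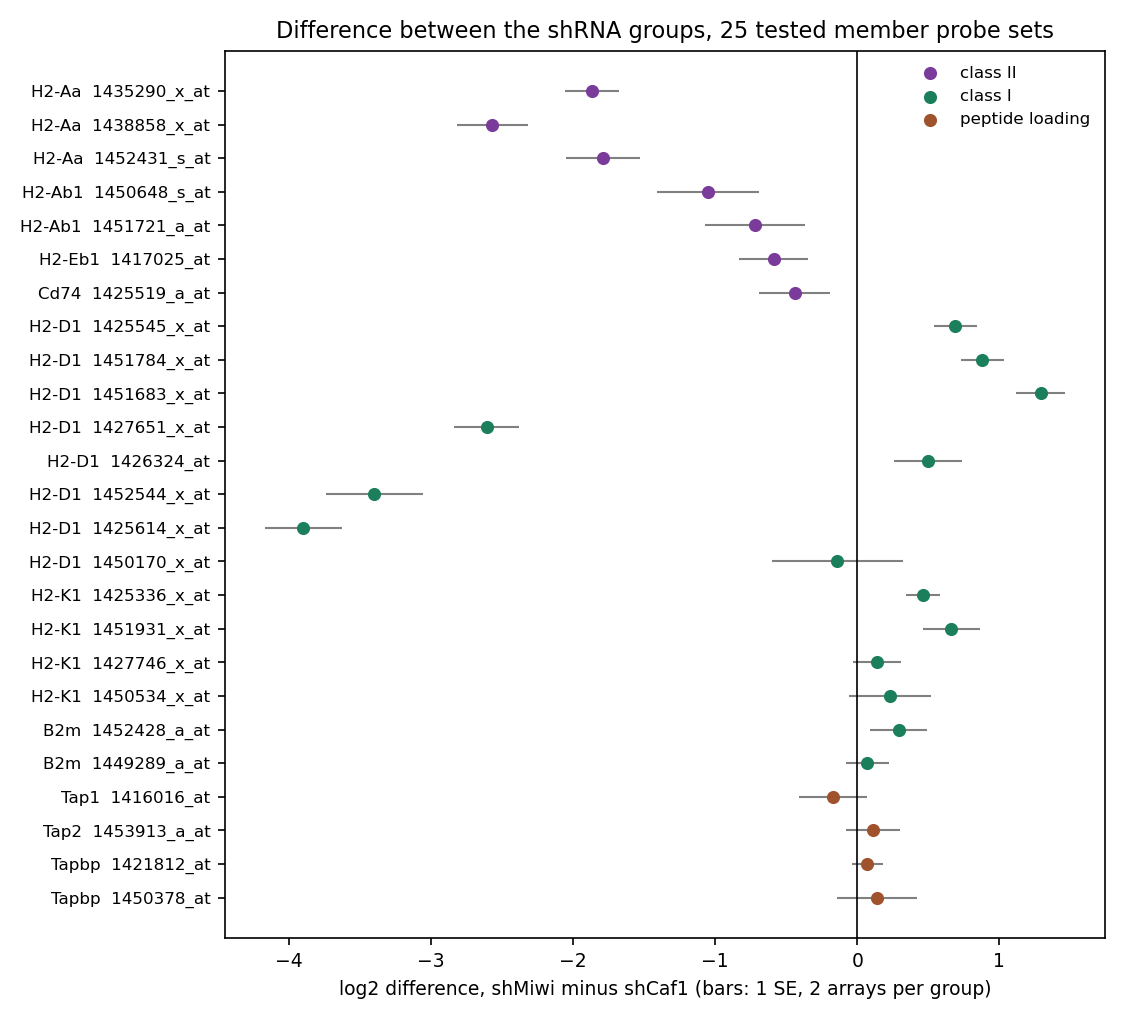
Log2 difference of shMiwi from shCaf1 for the 25 tested member probe sets, grouped by gene and coloured by class II, class I or peptide loading, with bars of 1 SE. All 7 class II probe sets lie below 0, and H2-D1 runs from -3.90 to 1.29.

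The spread between H2-D1 probe sets was compared with that of every other gene read by at least 2 tested probe sets, 5839 genes in all. The range of the difference of shMiwi from shCaf1 was 5.19 for H2-D1, the widest of these genes; the next were Rtel1 at 3.01, Ibsp at 2.74 and Plekha4 at 2.59. Of the other members, H2-Aa had a range of 0.77, H2-K1 0.52, H2-Ab1 0.33, B2m 0.23 and Tapbp 0.07. The median gene had a range of 0.39, and the 95th percentile was 1.15. H2-D1 is also read by more probe sets than most, and 9 genes had at least 8; the next widest range among those was 2.12. Calls in both directions were found in 10 of the 5839 genes (0.171%), and H2-D1 was the one with 3 in each direction where the others had 1 and 1. This is a description, as the same contrast was in view when the gene was chosen. The size of the range also follows the constant, at 6.36 with a constant of 1 and 3.75 with 64. It stayed the widest in each setting that kept its dim probe sets, and was 0.60, at rank 783 of 3765, when the filter was set at the 60th percentile, which removed the 3 lower probe sets.

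**Figure D3:**
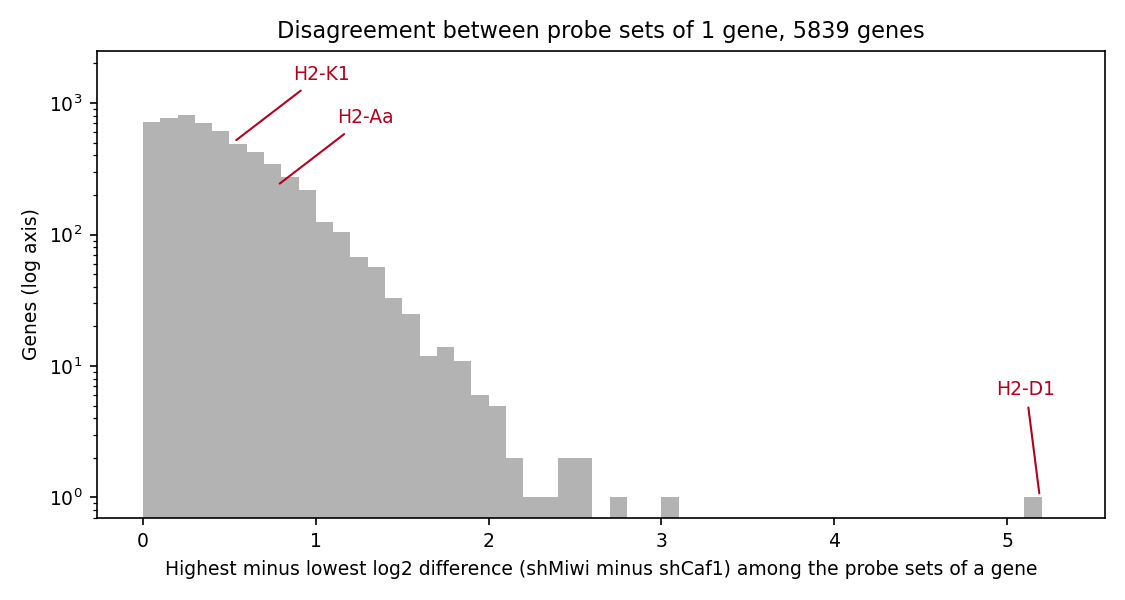
Range of the log2 difference of shMiwi from shCaf1 across the tested probe sets of a gene, for the 5839 genes with at least 2. The median range was 0.39, H2-D1 lies at 5.19, and H2-Aa (0.77) and H2-K1 (0.52) lie in the body of the distribution; bars count genes on a log axis.

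H2-K1, the other classical class I heavy chain on this chromosome, gave answers in 1 direction. The probe set 1425336_x_at read 2270 and 2165 in shCaf1, 3259 and 2862 in shMiwi and 1133 and 1649 in control, and 1451931_x_at read 1467 and 953, 2033 and 1727, and 1030 and 997. The shMiwi arrays were above the shCaf1 arrays in both, by 0.46 (SE 0.12) and 0.66 (SE 0.20), and neither was called. Both were called on the hybridization scale (0.86 and 1.05) and without the second shMiwi array (0.55 and 0.77), the first also with a filter at the 60th percentile and the second also without the first shCaf1 array (0.96). Without the second shCaf1 array the second was at 0.35. The dimmer 1427746_x_at and 1450534_x_at differed by 0.14 (SE 0.17) and 0.23 (SE 0.29). The first read 409 and 361 in shCaf1 and 399 and 451 in shMiwi, and the groups overlapped. The summed signal of all 4 was 4210 and 3565 in shCaf1 and 5773 and 5139 in shMiwi. A probe set annotated to both H2-K1 and H2-D1, and so not counted with either, read 620 and 824 in shCaf1 and 709 and 962 in shMiwi (0.20, SE 0.20).

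B2m, the light chain that every classical class I molecule needs, was not called between the shRNA groups on the deposited scale. Its probe set 1452428_a_at read 1345 and 862 in shCaf1 and 1300 and 1350 in shMiwi (0.29, SE 0.20), and 1449289_a_at read 1040 and 988 against 945 and 1192 (0.07, SE 0.15). The groups overlapped in both, and the probe sets differed from each other by 0.23. On the hybridization scale the H2-K1 and B2m differences ran from 0.46 to 1.05, and B2m 1452428_a_at was called there (0.69). Without the first shCaf1 array the latter was at 0.61 and without the second at -0.02. By rank among all probe sets, the highest-mean probe set of H2-K1 stood at the 92.1st and 91.8th percentile in shCaf1. In shMiwi it stood higher, at the 94.5th and 93.6th. That of B2m stood at the 87.6th and 83.2nd in shCaf1 and the 87.0th and 87.4th in shMiwi, which overlap.

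The genes that lie between H2-K1 and H2-D1 in RefSeq's order on chromosome 17 were read as a local comparison, chosen after the values were seen. Leaving out the members H2-Aa, H2-Ab1, H2-Eb1, Tap1 and Tap2, which also lie there (8 tested probe sets, -2.57 to 0.11, with 3 called lower), they gave 73 tested probe sets of 53 genes. Of these, 3 were called higher and 6 lower in shMiwi than in shCaf1, together 12.3%. The shares over all 27022 tested probe sets were 3.81% higher and 3.52% lower, and whether the interval departs from them was not tested. Differences in the interval ran from -1.10 (Msh5, a meiotic mismatch repair homologue) to 1.03 (Hspa1b, an inducible heat shock protein).

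The class II genes were lower in shMiwi than in shCaf1 in 7 of 7 tested probe sets, with a median log2 difference of -1.05 and no overlap of the groups in 6. Of all 27022 tested probe sets, 25.3% had both shMiwi arrays below both shCaf1 arrays. In bulk samples, fewer cells of a type and less RNA per cell cannot be told apart. H2-Aa, the alpha chain of the I-A molecule, differed most: 1435290_x_at read 575 and 519 in shCaf1 and 153 and 123 in shMiwi, with 1284 and 232 in control. The shMiwi arrays lay below the others, and the difference was -1.87 (SE 0.19), or 3.66-fold. Its probe set 1438858_x_at read 374 and 333 in shCaf1, 58 and 37 in shMiwi and 143 and 452 in control (-2.57, SE 0.25), and 1452431_s_at read 359 and 234, 71 and 74, and 100 and 17 (-1.79, SE 0.26). These 3 H2-Aa probe sets are the class II calls. The fourth, 1443783_x_at, was at 1.1 to 8.8 on the shRNA arrays and was not tested.

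H2-Ab1, the beta chain that pairs with H2-Aa, was lower by less and was not called. Its probe set 1450648_s_at read 673 and 331 in shCaf1 and 309 and 156 in shMiwi, with 147 and 1068 in control, a difference of -1.05 (SE 0.36). The groups did not overlap, but the replicates lay far apart. The probe set 1451721_a_at read 206 and 132 in shCaf1 and 137 and 63 in shMiwi, which overlap (-0.72, SE 0.35), and the third, 1425477_x_at, was not tested at 83 and 116 against 79 and 10. Leaving out 1 array moved 1450648_s_at between -0.56 and -1.55, with calls without the second shCaf1 array (-1.55) and without the first shMiwi array (-1.51), and it was called on the hybridization scale (-0.68). The same moved 1451721_a_at between -0.24 (without the second shMiwi array) and -1.20 (without the first, a call). In all 3 probe sets the lowest shRNA array was the second shMiwi array.

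H2-Eb1, the beta chain of the I-E molecule, read 227 and 225 in shCaf1, 181 and 115 in shMiwi and 1525 and 398 in control. The shMiwi arrays were below the shCaf1 arrays by 0.59 on the log2 scale (difference -0.59, SE 0.24). Cd74, the invariant chain, read 187 and 166 in shCaf1, 152 and 103 in shMiwi and 737 and 821 in control, a difference of -0.44 (SE 0.25). Neither was called, and in neither did the shRNA groups overlap. With the arrays rescaled on the hybridization controls, which moved the median of all probe sets to 0.39, all 7 class II differences stayed below 0, from -2.23 for H2-Aa 1438858_x_at to -0.09 for Cd74.

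Markers of cells that carry class II were read beside these values. Of 16 tested macrophage and monocyte markers, 1 was called higher in shMiwi than in shCaf1 (Mrc1, a mannose receptor, 0.69, limma adjusted p = 0.0197) and 1 lower (Aif1, a macrophage calcium-binding protein, -0.63, adjusted p = 0.017), with a median of -0.16 (0.22 on the hybridization scale, with 2 called higher and 0 lower). Their summed signal was 17170 and 16749 in shCaf1, 14507 and 14726 in shMiwi and 5961 and 10150 in control, so it was lower in shMiwi on both arrays as deposited. Without Aif1, left out after its values were seen, it was 10071 and 9307 against 10097 and 9750, which overlap. On the hybridization scale it was 15636 and 13953 in shCaf1 and 15414 and 18269 in shMiwi, which overlap. Csf1r, the receptor of macrophage colony-stimulating factor, read 1801 and 1917 in shCaf1 and 2353 and 2449 in shMiwi (adjusted p = 0.1), and Lyz2, a lysozyme, read 2566 and 2106 against 1775 and 1610 (-0.46, adjusted p = 0.0843). The differences of these markers thus lay in both directions on the deposited scale. Aif1 itself read 7098 and 7442 in shCaf1 and 4410 and 4975 in shMiwi, among the brightest few percent of probe sets on each shRNA array.

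Of 6 tested leukocyte and lymphocyte markers, 1 was called lower (Cd3d, a T cell receptor chain, -0.67, limma adjusted p = 0.0263), and the summed signal was 1883 and 1848 in shCaf1, 1416 and 1325 in shMiwi and 5626 and 2579 in control; on the hybridization scale it was 1715 and 1539 against 1505 and 1644. Without Cd3d, also left out after its values were seen, the deposited sum was 574 and 566 against 629 and 490. Ptprc, the common leukocyte antigen, was dim and not tested, at 54 and 33 in shCaf1 and 78 and 67 in shMiwi. Of 6 dendritic cell markers, 1 was called higher (Zbtb46, a transcription factor of classical dendritic cells, 1.15, adjusted p = 0.0324), and the sum was 416 and 462 in shCaf1 and 574 and 513 in shMiwi. The endothelial markers had 0 calls of 7, with sums of 1018 and 1174 against 1233 and 1132. The Leydig markers had 1 call of 6, higher, and sums of 20459 and 20693 against 24560 and 24018. The Sertoli markers had 2 calls of 10, both higher, and sums of 43949 and 42158 against 44749 and 40857. The elongating spermatid markers had 11 of 15 called lower, with a median of -0.70, and 4 lower and 1 higher, with a median of -0.30, on the hybridization scale. The part of any of these cells in the class I or class II values was not tested.

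The peptide-loading genes differed little between the shRNA groups, from -0.17 to 0.14 over 4 tested probe sets with a median of 0.09 (0.19 to 0.50 on the hybridization scale, where the median of all probe sets was 0.39). Tapbp 1421812_at was among the brightest members, at 2758 and 2703 in shCaf1 and 2824 and 2914 in shMiwi, with 204 and 3211 in control (0.07, SE 0.11). The shMiwi arrays lay just above the shCaf1 arrays, with no overlap. Its other probe set, 1450378_at, read 181 and 116 against 194 and 135 (0.14, SE 0.28). Tap2 read 339 and 265 in shCaf1 and 340 and 311 in shMiwi, with 1311 and 657 in control (0.11, SE 0.19). Tap1 1416016_at read 173 and 209 against 200 and 139 (-0.17, SE 0.24). The other 3 Tap1 probe sets were at 0.66 to 29 on the shRNA arrays and were not tested. None of these values was called, which does not show that the groups were alike.

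A level says little about presence on these arrays, since genes of tissues outside the testis also give signal. The median signal of 18 such genes was 50 and 60 in shCaf1, 61 and 46 in shMiwi and 601 and 279 in control. On the shRNA arrays 22 to 26 of the 31 member probe sets lay above that level, and on the control arrays 7 and 14. The median of all probe sets also lay above it on the shRNA arrays, at 70.7 to 79.9. On the control arrays that median lay below it, at 305 and 216, so nothing about the members is read from these counts. The Cd74 and H2-Eb1 values of 103 to 227 on the shRNA arrays were above the median of the outside-testis genes. The brightest of those genes, Tnni3 and Myh6, read 1076 to 1231 and 819 to 1006 there, so this does not show presence. The values of the 3 lower H2-D1 probe sets in shMiwi, 9.3 to 77, reached from below that median to just above.

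Against control the members gave 3 higher and 5 lower calls of 25 in shMiwi (median -0.02) and 6 higher and 2 lower in shCaf1 (median 0.44); both comparisons use the same 2 control arrays. When 1 array of the shRNA group compared was left out, limma called 0 members (5 to 7 at an unadjusted p under 0.05). Leaving out 1 control array raised the number of member calls in both comparisons. It did the same for the other antigen presentation genes described later, so nothing about the members is read from it. Leaving out 1 array of the other shRNA group lowered the number of member calls. Of all probe sets tested, 16.9% were called higher and 26.4% lower in shMiwi against control, and 15.5% and 26.0% in shCaf1. The medians of all probe sets were -0.20 and -0.25, and 3.58 and 3.15 once the arrays were rescaled on the hybridization controls. On the rescaled arrays every tested member probe set was above 0 against control, from 0.41 in shMiwi and from 1.30 in shCaf1. Each member direction below 0 thus turned with the scale, and the members called lower are given on both scales.

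Among the class I genes, B2m 1449289_a_at read 18 and 155 in control and 945 to 1192 on the shRNA arrays. It was above both control arrays in every shRNA array, by 3.81 (SE 0.79) in shMiwi and 3.75 (SE 0.79) in shCaf1, and by 5.92 and 5.46 on the hybridization scale. H2-K1 1427746_x_at read 48 and 18 in control and 361 to 451 on the shRNA arrays, 3.24 (SE 0.44) and 3.10 (SE 0.44) higher. H2-D1 1425545_x_at, at 162 and 411 in control, was 3.31 (SE 0.52) higher in shMiwi and 2.62 (SE 0.52) higher in shCaf1. These 3 were called in both comparisons. They stayed higher on the hybridization scale, but every tested member was above 0 there, so this adds nothing to the calls. The brightest H2-K1 probe set, 1425336_x_at, was 1.15 (SE 0.38) and 0.69 (SE 0.38) higher and was not called.

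The 3 H2-D1 probe sets that fell from shCaf1 to shMiwi split around control. In shCaf1 they were 1.79 (SE 0.38, 1427651_x_at), 2.31 (SE 0.51, 1452544_x_at) and 1.04 (SE 0.44, 1425614_x_at) above control, and the first and second of these were called. In shMiwi they were at -0.82 (SE 0.38), -1.09 (SE 0.51) and -2.87 (SE 0.44), and the last was called. On the hybridization scale all 3 were above control in shMiwi too, by 2.17, 1.47 and 0.41.

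Of the class II probe sets, 6 of 7 read lower than control in shMiwi and 4 of 7 in shCaf1 on the deposited scale, and of the loading probe sets 2 of 4 in both. Cd74 differed by -2.49 (SE 0.35) in shMiwi and -2.05 (SE 0.35) in shCaf1, both called, and by 1.97 and 2.06 on the hybridization scale. The sign thus turned with the scale. H2-Eb1 differed by -2.32 (SE 0.69, called) and -1.73 (SE 0.69), and by 2.28 and 2.51 on the other scale. Tap2 differed by -1.47 (SE 0.45) and -1.58 (SE 0.45), both called, and by 3.20 and 2.71. H2-Aa 1438858_x_at was called lower in shMiwi (-2.13, SE 0.60, and 1.31 on the hybridization scale). H2-Aa 1452431_s_at was called higher in shCaf1 (2.30, SE 0.69, and 3.97 on the hybridization scale). Tapbp 1421812_at, with control arrays at 204 and 3211, was not called in either comparison (1.78 and 1.70, SE 1.24).

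**Figure D4:**
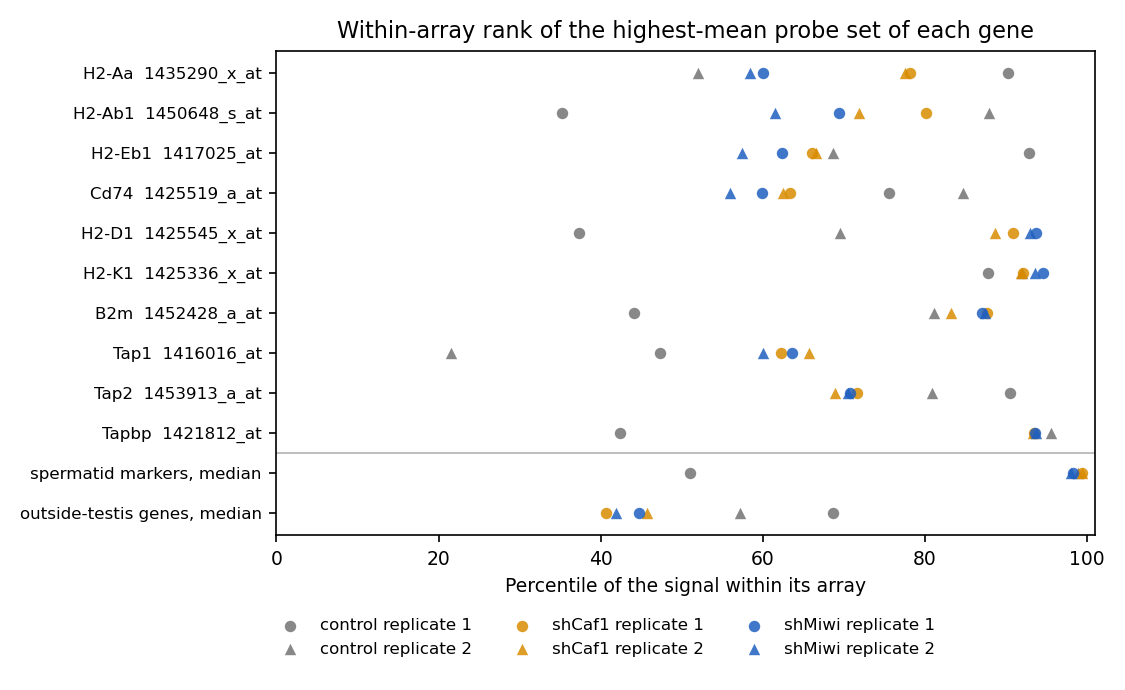
Percentile of the highest-mean probe set of each member among all probe sets of an array, for the 6 arrays, with the medians of the elongating spermatid markers and of the genes of tissues outside the testis as the last rows. On the shRNA arrays H2-K1, Tapbp and H2-D1 lie between the 88.6th and 94.5th percentile, while Tapbp lies at the 42.4th and 95.5th on the control arrays.

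Within arrays, a rank that no scaling changes gave the same split of the control arrays. Tapbp 1421812_at stood at the 42.4th percentile on the first control array and the 95.5th on the second, against the 93.3rd to 93.7th on the shRNA arrays. H2-D1 1425545_x_at stood at the 37.3rd and 69.5th on the control arrays, the 90.9th and 88.6th in shCaf1 and the 93.7th and 92.9th in shMiwi. Cd74 stood at the 75.5th and 84.7th on the control arrays, the 63.4th and 62.5th in shCaf1 and the 59.9th and 56.0th in shMiwi. By rank, then, Cd74 was lower and H2-D1 1425545_x_at higher on every shRNA array than on either control array. The median percentile of the genes of tissues outside the testis was also lower on the shRNA arrays. It was 68.6 and 57.2 in control, 40.7 and 45.7 in shCaf1 and 44.7 and 41.9 in shMiwi, so a lower rank is not particular to Cd74. That of the other antigen presentation genes, described later, was 59.9 and 70.5 in control and 72.1 to 73.7 on the shRNA arrays. A higher rank is thus not particular to H2-D1 1425545_x_at. Another probe set of the gene, 1425614_x_at, stood lower by rank in shMiwi (16.5 and 13.9) than in control (45.7 and 38.9).

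The rest of the pathway was read from a list of 61 other antigen presentation genes, of which 49 are on the array and 39 were tested, each by its highest-mean probe set. Between the shRNA groups, limma called 0 higher in shMiwi (8 at an unadjusted p under 0.05), 2 lower and 37 neither, with a median of -0.02; of all 14298 genes tested, 4.27% were called higher and 4.85% lower. Nlrc5, the transactivator of class I genes, read 221 and 222 in shCaf1, 126 and 88 in shMiwi and 177 and 223 in control. Both shMiwi arrays were the lowest of the 6, and the difference was -0.97 (SE 0.24, limma Benjamini-Hochberg adjusted p = 0.0443). Calr (calreticulin), a chaperone of newly made class I chains, read 10749 and 12643 in shCaf1 and 8475 and 8052 in shMiwi (-0.50, SE 0.11, adjusted p = 0.0361). Neither call held on the hybridization scale, where Nlrc5 was at -0.61 (limma adjusted p = 0.0813) and Calr at -0.10 (adjusted p = 0.708). There 10 of 37 genes of the list were called higher and 0 lower, and 7304 probe sets were called over all. The median of all probe sets was 0.39 on that scale, so nothing about the list is read from this count. The number of calls in the list was 1 without the first shCaf1 array, 0 without the second, and 4 without either shMiwi array. Without single arrays the adjusted p ran from 0.0056 to 0.188 for Nlrc5, a call only without the first shMiwi array, and from 0.0174 to 0.234 for Calr, lost without the second shCaf1 or the second shMiwi array.

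Ciita, the transactivator of class II genes, read 41 and 38 in shCaf1, 86 and 40 in shMiwi and 388 and 393 in control (0.44, SE 0.39, limma adjusted p = 0.539). Its shRNA groups were near the level of the outside-testis genes and were not distinguishable. Rfx5, part of the complex that binds the X box, read 667 and 620 against 780 and 725 (0.22, SE 0.15, adjusted p = 0.4). On the deposited scale the regulators of class II in the list had no call. On the hybridization scale Rfx5 (0.61, adjusted p = 0.0386), Creb1 (0.91, adjusted p = 0.00241) and Nfya (0.61, adjusted p = 0.0433) were called higher in shMiwi by limma. The median of all probe sets was itself 0.39 on that scale.

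**Figure D5:**
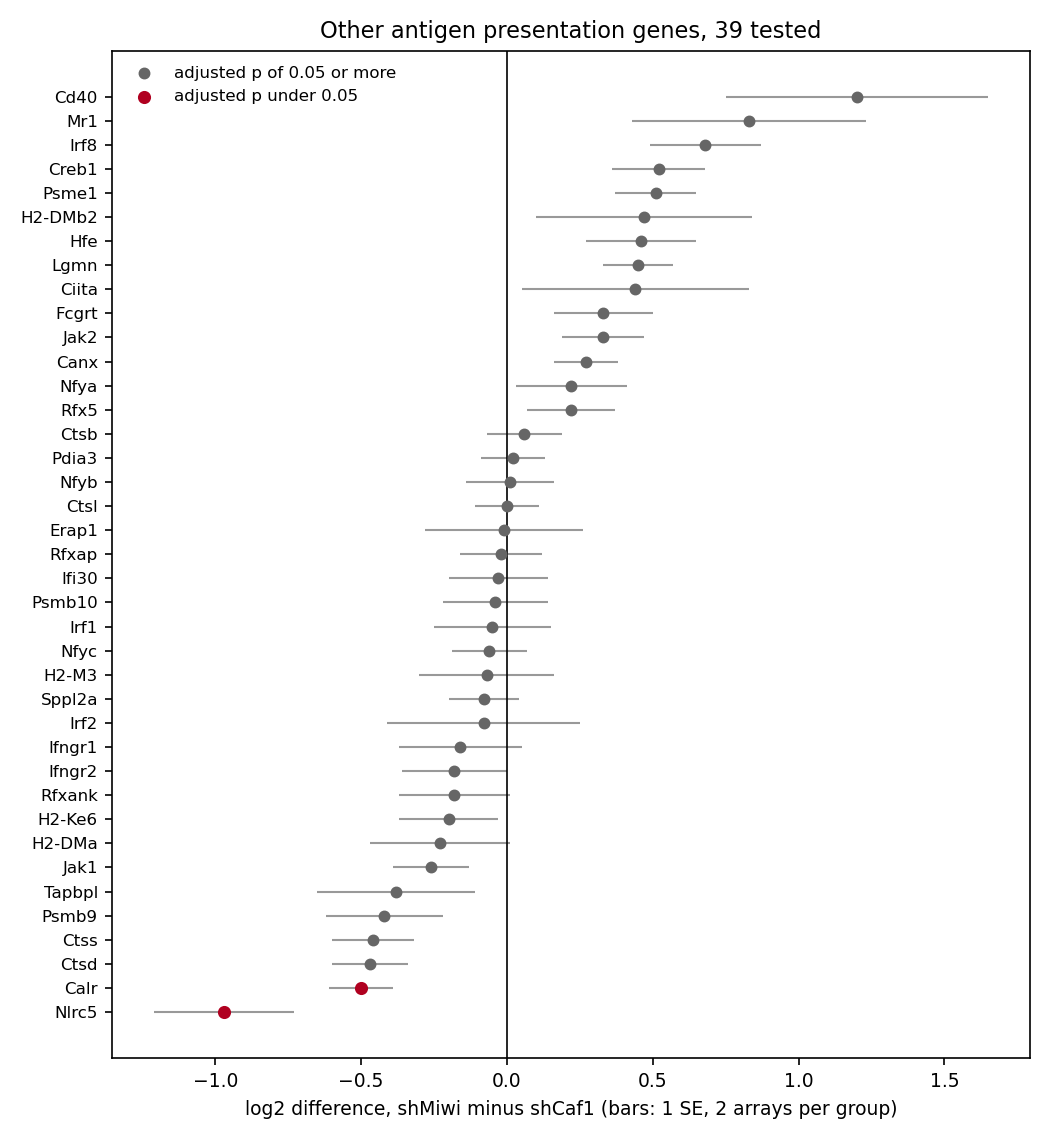
Log2 difference of shMiwi from shCaf1 for the 39 tested genes of the antigen presentation list, with bars of 1 SE. The values centre on a median of -0.02, and Nlrc5 (-0.97) and Calr (-0.50) are the calls.

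Against control, 4 of the 39 genes were called higher in shMiwi, 10 lower and 25 neither (median 0.27), and 4, 12 and 23 in shCaf1 (median 0.15). Of all genes tested, 18.6% were called higher and 22.7% lower in shMiwi, and 17.2% and 22.4% in shCaf1. Ctsl, a lysosomal protease that trims the invariant chain in some cells and is also a Sertoli marker here, was higher by 3.71 in both (SE 0.75, limma adjusted p = 0.0149 and 0.0157). Lgmn, a lysosomal endopeptidase, was higher by 2.69 (SE 0.37, adjusted p = 0.00653) and 2.24 (SE 0.37, adjusted p = 0.00997), and Ctss, the protease that trims the invariant chain in antigen-presenting cells, by 2.13 in shMiwi (SE 0.36, adjusted p = 0.00905) and 2.60 in shCaf1 (SE 0.36, adjusted p = 0.00725). The calls below control included regulators and immunoproteasome genes. Irf2, an interferon regulatory factor, differed by -3.52 in shMiwi and -3.44 in shCaf1 (SE 0.41; adjusted p = 0.00519 and 0.00608), and by 1.09 and 0.85 on the hybridization scale. Ciita differed by -2.43 and -2.87 (SE 0.45; adjusted p = 0.0121 and 0.00899), and by 1.54 and 0.81 on that scale. Psmb9, an immunoproteasome subunit, differed by -2.31 in shMiwi and -1.88 in shCaf1 (SE 0.36; adjusted p = 0.00812 and 0.014), and by 2.41 and 2.46 on that scale. Of the 10 and 12 genes called lower, 8 and 10 turned higher on the hybridization scale; Cd40 and Mr1 had no value there.

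The genes whose profile over the 6 arrays lay nearest to the mean class II profile were Nwd2 and Umodl1 (root mean square distance 0.19 log2 units each), Sdcbp2 and Cacnb1 (0.20 each) and Aars2 (0.21), where the median of 14288 genes was 1.15. For the class I profile (H2-D1, H2-K1 and B2m) they were Pdp1 (0.08), Inpp5f (0.11), Wasf2 (0.12), Atp11a (0.13) and Fbxo34 (0.13), where the median was 1.24. None of these 10 genes is in the antigen presentation list. The likeness is a description over 6 arrays, and the control arrays held 46.5% of the squared deviations of the class II profile and 66.8% of those of the class I profile.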

How the data were processed

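Per the submitters' processing notes, the authors' deposited values are MAS5 signal intensities, linear and 1 for each probe set on each array; the MAS5 version and a genome build are not given in the sources used here. Their 2% trimmed mean is 500 on all 6 arrays, which multiplies up the dim majority of an array whose signal sits in few probe sets. The 64 Affymetrix control probe sets were removed, log2(signal + 16) was taken, and probe sets with a mean over 6 arrays above the 40th percentile were tested, 27022 of 45101. The constant of 16 understates differences of dim probe sets. Groups, taken from the sample titles, were fitted in R 4.3.3 with limma 3.58.1 (lmFit, then eBayes with a trend on intensity, and Benjamini-Hochberg adjustment over all tested probe sets), and a call is an adjusted p under 0.05. shMiwi against shCaf1 was fitted on their 4 arrays, and each group against control on all 6. A second scale sets the arrays equal on 18 probe sets of the hybridization controls. The limma script was tested on simulated data.

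The members, the lists and the tests were chosen with earlier results of these data known. Probe sets were named from GEO's platform annotation where it gives 1 gene. All member probe sets are named or counted. Of the other antigen presentation genes, Ciita, Nlrc5, Rfx5 and up to 8 calls per comparison with the largest difference could be named, the 2 brightest of each marker list, and the 5 genes nearest in profile. Other named markers were chosen after their values were seen, as were Msh5, Hspa1b, Creb1 and Nfya. A gene outside the members was read by its highest-mean probe set. Precision is limited by 2 arrays per group. Other constants, filters, scalings, variance models, thresholds, a replicate block and fits without each array were tried. Scanner files and detection calls were not used here.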

Additional observations from a re-analysis of the deposited data

How the results depend on the processing

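Between the shRNA groups, 1981 probe sets were called, 9 of them members, with 2 of the other antigen presentation genes. The 9 members kept their direction under every alternative that tested them. The numbers were 568 probe sets and 0 genes with no filter, 5 members with a filter at the 60th percentile, 1108 probe sets and 1 gene with median centring, and 7304, 14 members and 10 genes with hybridization control scaling. Without an intensity trend they were 15, 1 and 0, on all 6 arrays 0, 0 and 0, and at an adjusted p under 0.01 262 probe sets and 0 genes; the median over a gene's probe sets gave 4 genes. Leaving out 1 array gave 276 to 3878 probe sets, 8 to 12 members and 0 to 4 genes, with 2 members (H2-D1 1425545_x_at and 1451784_x_at) lost without the second shCaf1 array. With the replicate number as a block, 5458 probe sets, 13 members and 8 genes were called; the 13 hold the 9 and add H2-Ab1 1450648_s_at and 1451721_a_at and H2-K1 1425336_x_at and 1451931_x_at. Whether the numbers pair the samples is not stated in the labels. Deviations of same-numbered arrays correlated at 0.0606 (control and shCaf1), 0.00396 (control and shMiwi) and 0.181 (shCaf1 and shMiwi). Each rests on 1 replicate difference per group, which cannot decide the question.

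For shMiwi against control, 11687 probe sets, 8 members and 14 genes were called, with a member median of -0.02. The numbers were 18076 probe sets (median -0.83) with no filter, 6793, 4 and 9 (1.01) at the 60th percentile, 25421, 25 and 39 (2.91) with hybridization scaling, 6632, 5 and 9 on 4 arrays and 5104, 4 and 5 at 0.01. Quantile normalization gave 8 genes (0.75) and median centring a median of 1.48. Leaving out 1 array gave 0 to 22700 probe sets, 0 to 20 members and 0 to 34 genes, with 0 members and genes when a shMiwi array was left out. For shCaf1 against control, 11205, 8 and 16 were called, with a median of 0.44. The numbers were 17244 probe sets with no filter, 6448 and 5 members at the 60th percentile, 24729, 26 and 36 (3.75) with hybridization scaling, 5941, 3 and 9 on 4 arrays and 4247, 1 and 6 at 0.01. Each setting counts what passes its own filter, so more than the 25 members of the main fit can enter. Of those 25 and of 37 genes of the main fit, hybridization scaling called 24 and 37 in shMiwi and 25 and 35 in shCaf1. Quantile normalization gave 10 genes (1.31) and median centring 13 members (2.06). Leaving out 1 array gave 0 to 22675 probe sets, 0 to 20 members and 0 to 32 genes, with 0 members and genes when a shCaf1 array was left out and a median of 0.36 to 0.81.

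Some differences from control changed sign. With median centring Tap2 was at 0.25 in shMiwi and 0.12 in shCaf1. With hybridization scaling H2-Aa 1435290_x_at was at 2.49 and 3.99, H2-Eb1 at 2.28 and 2.51, Cd74 at 1.97 and 2.06, Tap2 at 3.20 and 2.71, and H2-Ab1 1450648_s_at at 2.81 in shMiwi. In shCaf1, H2-Aa 1435290_x_at was at 1.18 without the first control array and -1.21 without the second, and H2-Ab1 1450648_s_at at -1.15 and 1.58. The cause was not tested in any of these cases.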
